A study of Rattus norvegicus with 7 samples.

Results

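Mgp, Dcn, Lum, Ogn, Bgn, Fmod, Aldh1a2 and Twist1 are 8 genes that mark fibroblasts of the meninges, the membranes around the brain, or encode matrix proteins these cells secrete. They were taken as a named set, and all array probes annotated to them were used, which gave 9 probes, 1 per gene and 2 for Bgn. All 8 genes were among the 15443 named genes on the array and among the 11966 named genes that were bright enough to be tested. Transcripts were measured in cerebellum tissue, 20 mg per pup, from female Wistar rats aged 21 days, born to dams on 1 of 2 diets. In the methyl donor deficient group (MDD, n = 3 pups) the dams ate a diet lacking folate and vitamin B12 and low in choline. In the control group (CTRL, n = 4 pups) they ate standard chow. Both diets started 1 month before pregnancy and lasted until weaning at 21 days, so the pups were exposed through the dam in gestation and lactation, and the study's title names Wnt signalling. Pups are called biological replicates, but which of them shared a dam is not stated, so each p-value reflects variation among pups only.

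Small leucine-rich proteoglycans are secreted proteins built on leucine-rich repeats, most of them carrying glycosaminoglycan chains, that bind collagen fibrils and shape how thick they grow; decorin and biglycan also bind TGF-beta. In the brain they come mostly from fibroblasts of the meninges and of the sheaths around larger vessels. Meningeal fibroblasts also make retinoic acid through Aldh1a2 during development, and their precursors in the cranial mesenchyme use the transcription factor Twist1.

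Each array held 30367 probes, of which 22255 were kept, and between 74.1% and 79.6% of its spots were well above background. Values are log2 intensities relative to the array's 75th percentile, so 0 is a spot as bright as that percentile and 1 unit is a doubling. A level can be compared between pups for 1 probe, not between probes. Transcripts of cerebellar neurons such as Gabra6, a GABA receptor subunit of granule cells, were well above background on every array, which fits the labelled tissue. The number of arrays limits the precision.

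CTRL replicate 3 stood apart in skeletal muscle genes. Of 9 measured muscle markers, all but the parvalbumin gene Pvalb (8 genes) were highest of the 7 arrays in this pup. Myl11, a myosin light chain gene, had -4.31, -4.89 and -4.29 in MDD pups, and 0.86 in CTRL replicate 3 and -5.04, -5.11 and -4.81 in the other CTRL pups. Summed over these 8, the signal was 0.944 to 1.10 times the array's 75th percentile in MDD pups, and 8.33 in CTRL replicate 3 and 0.821 to 0.885 in the other CTRL pups. Without CTRL replicate 3 the differences of the proteoglycan set kept their signs, at 0.57 for Mgp (adjusted p = 0.0883), -0.47 for Lum (adjusted p = 0.124) and 1.24 for Twist1 (adjusted p = 0.0469).

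Of the 8 genes, Mgp and Twist1 were higher in MDD by the test across all genes (limma, Benjamini-Hochberg adjusted p under 0.05), 0 were lower, and 6 did not pass; at an unadjusted p under 0.05 there were 4, with Lum and Aldh1a2 besides. Of the 19991 genes and unnamed probes tested, 20.4% were called in either direction. The set had 25% called higher, against 12.7% of all tested, and 0 called lower against 7.72%. Twist1 could enter the test through its MDD arrays alone, so its call lends no support to the count. The Mgp call was lost when single arrays were left out, as given with that gene. Lum did not pass, but all its MDD arrays lay below all its CTRL arrays. Dcn, Ogn and Bgn had differences near 0, and Fmod and Aldh1a2 had higher means in MDD with a wide spread. The 8 differences had a median of 0.30 on the log2 scale, against -0.03 over everything tested. The groups did not overlap for Mgp and Twist1, with MDD higher (20.1% of all tested), nor for Lum, with MDD lower (16.4% of all tested), and overlapped for the other 5; over all tested, groups did not overlap for 36.5%. RNA came from 20 mg of cerebellum per pup, and how much of the meninges each piece held was not measured. More fibroblasts in the piece and more RNA per fibroblast therefore cannot be told apart.

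**Figure D1:**
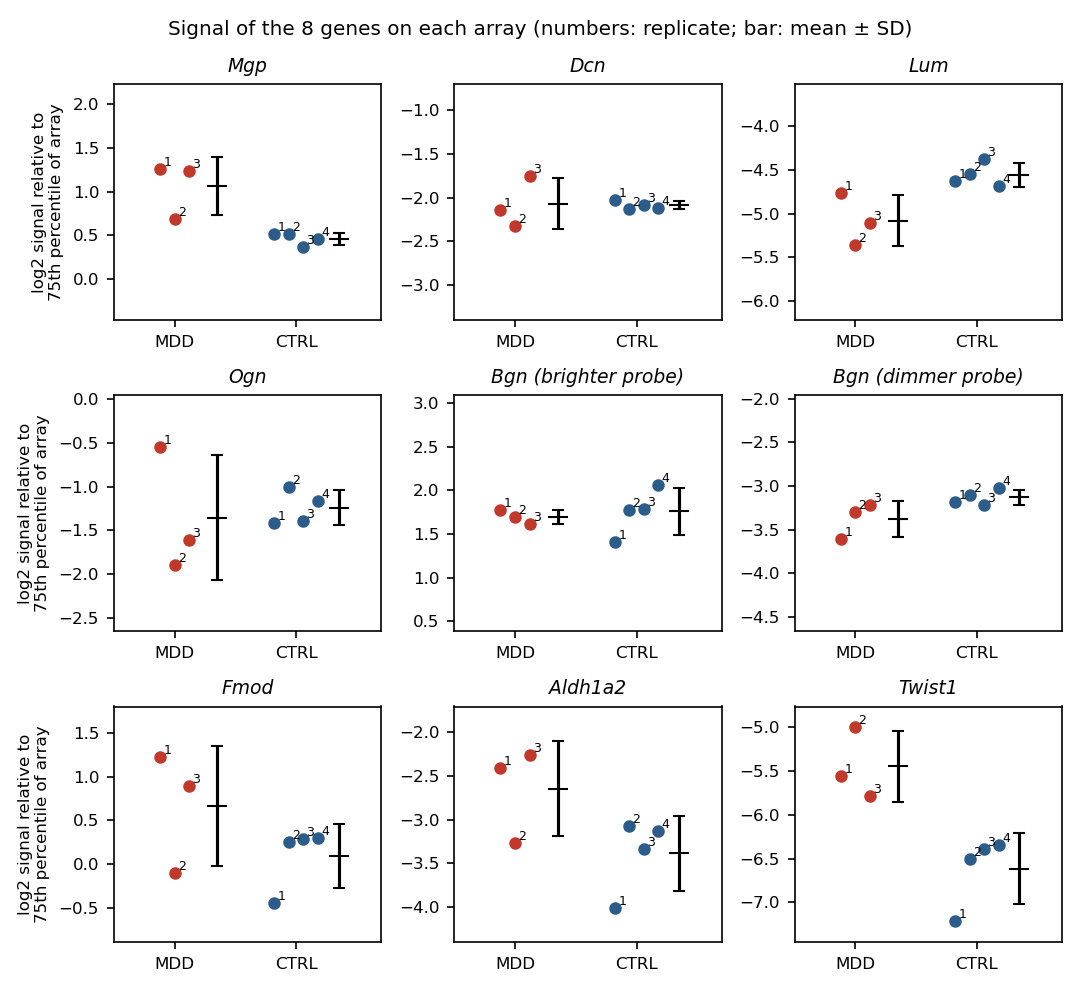
Log2 signal of each of the 9 probes relative to the array's 75th percentile (vertical axis) on the 3 MDD arrays (red, left) and the 4 CTRL arrays (blue, right), with replicate numbers beside the points and the mean ± SD as bars. All panels span the same number of log2 units. Groups are apart for Mgp, Lum and Twist1, and replicate 2 is the lowest MDD array for 6 of the 8 genes.

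Dcn encodes decorin, which coats collagen fibrils and holds TGF-beta in the matrix. Its signal was -2.14, -2.32 and -1.75 in MDD pups, and -2.03, -2.13, -2.08 and -2.12 in CTRL pups. The CTRL pups lay within 0.10 of each other and the MDD pups spread on both sides of them. The means were -2.07 ± 0.29 (SD, n = 3) in MDD and -2.09 ± 0.04 (SD, n = 4) in CTRL, a difference of 0.02 (SE 0.15, 95% interval -0.32 to 0.37, limma adjusted p = 0.93). This probe is printed 10 times on each array, and 1 of these spots on 1 CTRL array was an outlier by the scanner's own mark and left out.

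Biglycan, the product of Bgn, is the closest relative of decorin and binds both collagen and TGF-beta. Its brighter probe gave 1.78, 1.69 and 1.62 in MDD pups, and 1.41, 1.78, 1.79 and 2.06 in CTRL pups, so that every MDD value fell inside the CTRL range. The difference was -0.06 (SE 0.16, 95% interval -0.43 to 0.31, adjusted p = 0.802). The dimmer probe gave -3.61, -3.30 and -3.22 in MDD pups, and -3.18, -3.10, -3.22 and -3.02 in CTRL pups, with the highest MDD pup and the lowest CTRL pup both at -3.22. Its difference was -0.25 (SE 0.14, adjusted p = 0.209 among all probes), so neither probe passed.

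Lumican, encoded by Lum, carries keratan sulfate in the cornea and limits fibril thickness in many connective tissues. Lum stood at -4.77, -5.36 and -5.11 in MDD pups, and at -4.63, -4.55, -4.37 and -4.68 in CTRL pups. Every MDD pup was below every CTRL pup, though the nearest values were only 0.09 apart. The means were -5.08 ± 0.30 (SD, n = 3) in MDD and -4.56 ± 0.13 (SD, n = 4) in CTRL, a difference of -0.53 (1.44-fold lower in MDD, SE 0.16), and the adjusted p of 0.0522 missed the threshold. The signal behind these values was low, 32.9 to 61.1 intensity units in MDD and 53.0 to 90.4 in CTRL, although the probe was well above background on all 7 arrays. The gene was called lower in 2 of 20 alternatives, over which its difference ran from -0.68 to -0.24. These 2 were the fit without MDD replicate 1 (-0.68, adjusted p = 0.0363) and that of only probes well above background on every array (-0.53, adjusted p = 0.041). The latter used the same Lum values and changed only what was tested beside them, 18250 genes and unnamed probes against 19991. It did not pass with quantile scaling (-0.385, adjusted p = 0.17), normexp background correction (-0.242, adjusted p = 0.274) or the authors' table (-0.312, adjusted p = 0.0945).

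Fibromodulin, encoded by Fmod, shares a collagen binding site with lumican and is abundant in tendon. Fmod stood at 1.22, -0.10 and 0.89 in MDD pups, and at -0.45, 0.25, 0.29 and 0.30 in CTRL pups. MDD replicates 1 and 3 were above all CTRL pups and MDD replicate 2 was within them, while CTRL replicate 1 was far below the other CTRL pups. The difference of 0.58 (1.49-fold, SE 0.32, 95% interval -0.16 to 1.31) did not pass (adjusted p = 0.217). Without MDD replicate 2 it was 0.96 and passed (adjusted p = 0.0299), and without MDD replicate 1 it was 0.30 (adjusted p = 0.531).

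Ogn encodes osteoglycin, also called mimecan, a proteoglycan of bone, cornea and fibroblast matrix. Ogn stood at -0.55, -1.90 and -1.61 in MDD pups, and at -1.42, -1.0, -1.39 and -1.16 in CTRL pups. MDD replicate 1 was the highest of all 7 arrays and the other 2 MDD pups were the lowest. The difference was -0.12 (SE 0.30, 95% interval -0.79 to 0.56, adjusted p = 0.798), and its sign turned without MDD replicate 2 (0.16) or without MDD replicate 3 (0.01).

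Mgp encodes matrix Gla protein, a small secreted protein that keeps arteries and cartilage from calcifying once its glutamates have been carboxylated in a vitamin K dependent reaction. Mgp stood at 1.26, 0.68 and 1.24 in MDD pups, and at 0.51, 0.51, 0.36 and 0.46 in CTRL pups. All MDD pups were above all CTRL pups, by 0.17 for the nearest pair, and the CTRL pups lay close together. The means were 1.06 ± 0.33 (SD, n = 3) in MDD and 0.46 ± 0.07 (SD, n = 4) in CTRL, so Mgp rose by 0.60 (1.52-fold, SE 0.16, 95% interval 0.23 to 0.97, adjusted p = 0.0361). Both spots of the probe were close to each other on every array, with an SD of at most 0.18 between them. With 1 CTRL pup left out, Mgp no longer passed, with an adjusted p of 0.071 for replicate 1 (difference 0.62), 0.0734 for replicate 2 (0.62), 0.0883 for replicate 3 (0.57) and 0.0881 for replicate 4 (0.60). Nor did it pass without MDD replicate 1 (0.50, adjusted p = 0.0905) or 3 (0.51, adjusted p = 0.0876), while it did without MDD replicate 2 (0.79, adjusted p = 0.00853). With a loess trend of each array's values over gene length and brightness taken out, the Mgp difference was 0.25 (adjusted p = 0.245), in a fit that called 6.54% of named genes higher and 4.65% lower; Mgp is short, at 3417 bases in the genome.

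Aldh1a2 encodes the retinaldehyde dehydrogenase that makes retinoic acid in the meninges. Aldh1a2 stood at -2.41, -3.27 and -2.26 in MDD pups, and at -4.01, -3.07, -3.34 and -3.13 in CTRL pups. As with Fmod, MDD replicates 1 and 3 were above every CTRL pup, MDD replicate 2 was among them, and CTRL replicate 1 was the lowest. The means were -2.65 ± 0.55 (SD, n = 3) in MDD and -3.39 ± 0.43 (SD, n = 4) in CTRL, a difference of 0.74 (1.67-fold, SE 0.30, 95% interval 0.05 to 1.43) that did not pass (adjusted p = 0.109). Without MDD replicate 2 it was 1.05 and passed (adjusted p = 0.0303), and without CTRL replicate 1 it was 0.53 (adjusted p = 0.206).

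Twist1 encodes a basic helix-loop-helix transcription factor of the cranial mesenchyme, from which skull and meninges form. Twist1 stood at -5.55, -5.0 and -5.79 in MDD pups, and at -7.22, -6.51, -6.39 and -6.34 in CTRL pups, with every MDD pup above every CTRL pup by at least 0.55. The means were -5.45 ± 0.40 (SD, n = 3) in MDD and -6.61 ± 0.41 (SD, n = 4) in CTRL, a difference of 1.17 (2.24-fold, SE 0.26, 95% interval 0.57 to 1.76, adjusted p = 0.0217). Its probe was dim, with 21.2 to 73.8 intensity units in MDD and 9.26 to 23.6 in CTRL, and it counted as well above background in 3 of 3 MDD pups and 2 of 4 CTRL pups. In MDD replicates 2 and 3 and CTRL replicate 3 this rested on 1 of its 2 spots. The MDD arrays alone were enough to keep it in the test, and the fold is set against CTRL values of which 2 were not well above background. With no filter on dim probes the same difference had an adjusted p of 0.0514.

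The high value of Twist1 on MDD replicate 2 came from 1 spot. Of the 2 Twist1 spots on that array, 1 gave 129 units (log2 -3.60) and the other gave 18.5 units (log2 -6.40), which is within the CTRL range. Neither spot had an outlier mark from the scanner. Without the bright spot, an alternative chosen after seeing the data, the difference was 0.70 (SE 0.27) and did not pass (adjusted p = 0.0945). MDD replicate 2 then lay below CTRL replicates 3 (-6.39) and 4 (-6.34), so the groups overlapped. Without the whole of MDD replicate 2 the difference was 0.94 and passed (adjusted p = 0.0377), as it did in all 7 fits that left out 1 array (0.94 to 1.34, adjusted p = 0.0323 to 0.0499). Of these 7 fits, all but that without MDD replicate 2 kept the bright spot. On the authors' normalized intensities the difference was 0.40 (adjusted p = 0.0653).

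**Figure D2:**
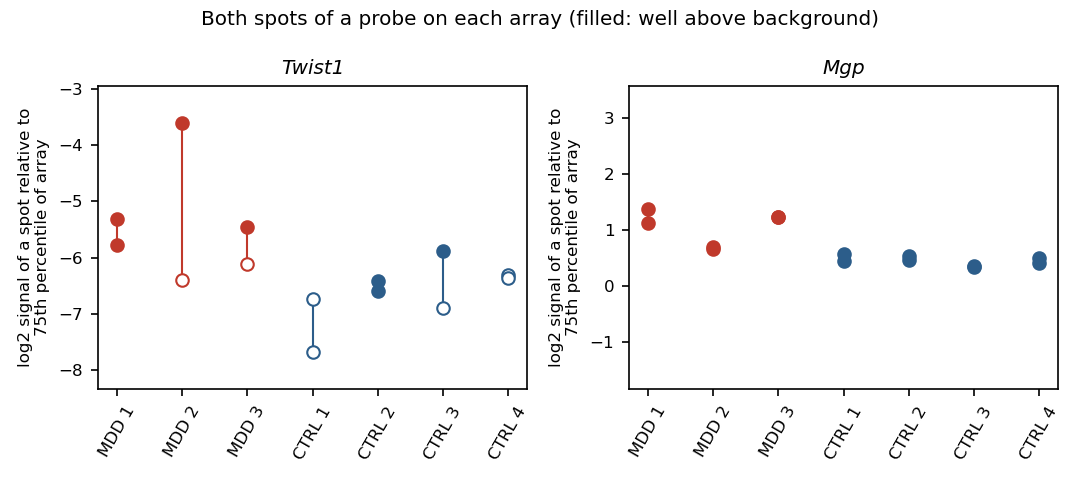
Log2 signal of each of the 2 spots of the Twist1 probe (left) and of the Mgp probe (right) on every array, relative to the array's 75th percentile; filled points are well above background and a line joins the spots of 1 array. The panels span the same number of log2 units. The Twist1 spots of MDD replicate 2 are at -3.60 and -6.40, while the Mgp spots of each array lie close together.

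The pups of a group did not carry the genes evenly. MDD replicate 2 was the lowest MDD array for 6 of the 8 genes (30.4% of all tested), namely Mgp, Dcn, Lum, Ogn, Fmod and Aldh1a2. CTRL replicate 1 was the lowest CTRL array for 5 of the 8 (24.1% of all tested), namely Ogn, Bgn, Fmod, Aldh1a2 and Twist1. The range between pups was wider in MDD for 6 of 8 genes, as it was for 65.4% of everything tested. With each gene centred on its mean over the 7 arrays, the 8 genes averaged 0.42, -0.13 and 0.22 on the MDD arrays, and -0.41, -0.02, -0.07 and -0.01 on the CTRL arrays. MDD replicate 2 was therefore lower, over the set, than 3 of the CTRL pups. All MDD arrays lay in row 2 of the slide with CTRL replicate 4, and the other CTRL arrays lay in row 1. Within row 2, where CTRL has 1 array that is taken to vary like the MDD ones, Mgp differed by 0.60 and Twist1 by 0.89. With row as a block the differences were the same, and neither passed (adjusted p = 0.258 for Mgp and 0.262 for Twist1). That fit called 0 higher and 1 lower of all 19991 tested, so not passing there says little about these genes.

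**Figure D3:**
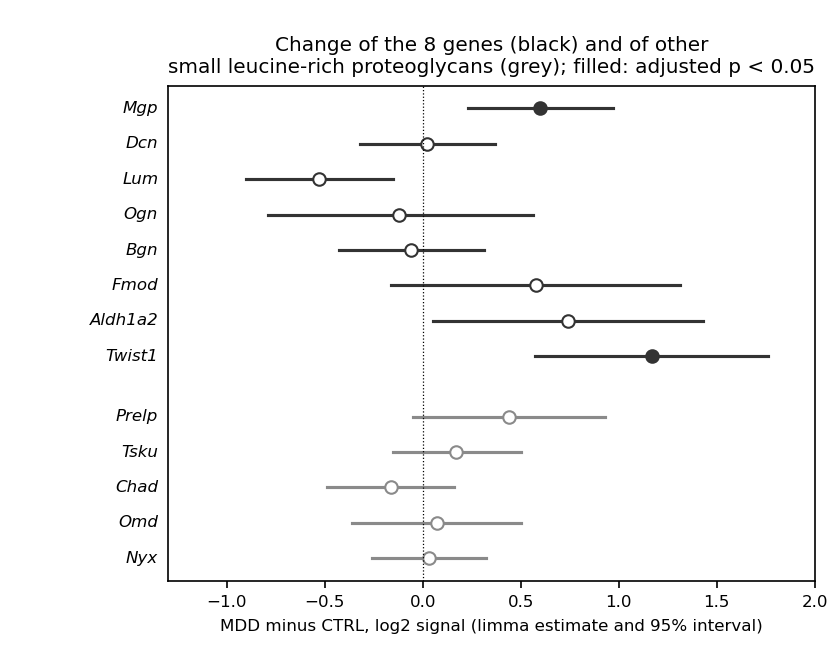
Difference MDD minus CTRL in log2 signal (horizontal axis; point, limma estimate; line, 95% interval) for the 8 genes (black) and for the 5 other small leucine-rich proteoglycans that could be measured (grey). Filled points passed an adjusted p of 0.05, which were Mgp and Twist1; the intervals of Lum and Aldh1a2 leave out 0 without passing after adjustment.

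Promoter sequences were compared for the genes that differed most between groups or between pups. RefSeq windows of 300 bases around the annotated start, on the rat assembly GRCr8, were matched to 5 of the 8 genes, Lum, Ogn, Fmod, Aldh1a2 and Twist1, and not to Mgp, Dcn and Bgn. The pair that varied alike over the pups, Fmod and Aldh1a2, is shown with Lum and Twist1, whose groups did not overlap. Capitals mark E-boxes, the letters CANNTG that basic helix-loop-helix factors such as Twist1 bind, which read the same on both strands; all are written 5' to 3' on the gene's strand, which is the plus strand for these 4.
Lum (chr7:34245456-34245755): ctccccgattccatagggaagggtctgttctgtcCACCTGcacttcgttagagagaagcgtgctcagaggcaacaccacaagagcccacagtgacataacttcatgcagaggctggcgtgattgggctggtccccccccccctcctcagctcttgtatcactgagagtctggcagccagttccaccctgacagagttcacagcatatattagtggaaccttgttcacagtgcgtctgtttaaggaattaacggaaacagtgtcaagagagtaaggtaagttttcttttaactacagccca
Fmod (chr13:48045317-48045616): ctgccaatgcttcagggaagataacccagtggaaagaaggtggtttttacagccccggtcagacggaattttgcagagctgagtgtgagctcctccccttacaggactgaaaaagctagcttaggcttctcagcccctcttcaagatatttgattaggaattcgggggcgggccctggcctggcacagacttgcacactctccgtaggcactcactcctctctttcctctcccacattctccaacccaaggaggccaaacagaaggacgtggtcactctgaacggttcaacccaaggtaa
Aldh1a2 (chr8:80758391-80758690): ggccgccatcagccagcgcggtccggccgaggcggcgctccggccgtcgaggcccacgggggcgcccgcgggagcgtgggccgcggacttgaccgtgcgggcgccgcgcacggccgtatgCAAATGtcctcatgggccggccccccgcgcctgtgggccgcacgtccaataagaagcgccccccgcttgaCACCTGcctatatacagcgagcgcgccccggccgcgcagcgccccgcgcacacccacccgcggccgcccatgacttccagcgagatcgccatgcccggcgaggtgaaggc
Twist1 (chr6:56402059-56402358): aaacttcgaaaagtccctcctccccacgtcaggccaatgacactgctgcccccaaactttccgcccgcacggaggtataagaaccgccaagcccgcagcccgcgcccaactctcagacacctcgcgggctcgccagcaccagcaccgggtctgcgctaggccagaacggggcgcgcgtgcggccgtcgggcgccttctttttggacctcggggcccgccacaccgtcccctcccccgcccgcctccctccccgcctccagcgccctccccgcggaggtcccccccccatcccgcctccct
The window of Lum held 1 E-box (CACCTG, beginning at -216 from the annotated start), that of Aldh1a2 held 2 (CAAATG at -130 and CACCTG at -60), and those of Fmod and Twist1 held 0. Ogn, not printed, held 4. An E-box occurs in 72.1% of the 33469 promoter windows of the table, so its presence is common. The letters AGGTCA, searched on both strands as the core of a retinoic acid receptor site, were in 16.2% of all windows and in 0 of these 5. CpG dinucleotides, where DNA methylation is laid down, numbered 47 in Aldh1a2 (the 98.7th percentile of all windows) and 32 in Twist1 (the 91.6th), against 6 in Lum, 7 in Fmod and 3 in Ogn. DNA methylation was not measured on these arrays.

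Of 13 other small leucine-rich proteoglycans 8 were on the array, 3 of these were not above background on any array, and 5 were tested. None of the 5 passed, where 20.4% of all tested did, 4 had a higher mean in MDD, and the median was 0.07. Prelp, which anchors basement membranes to collagen and lies next to Fmod on chromosome 13, had -1.64, -2.16 and -1.25 in MDD pups, and -2.31, -2.23, -2.06 and -1.90 in CTRL pups. Its difference was 0.44 (SE 0.21, adjusted p = 0.164), with MDD replicate 2 again the lowest MDD pup. Tsku, a secreted member of the family that binds BMP in chick, differed by 0.17 (SE 0.14, adjusted p = 0.394).

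Among 50 measured genes of meningeal fibroblasts outside the set, 8 rose in MDD (16%, against 12.7% of all tested), 0 fell (against 7.72%), and 39 had a higher mean in MDD. Their median was 0.35. S100a6, a calcium-binding protein of fibroblasts, had -1.16, -2.23 and -0.88 in MDD pups, and -3.11, -2.95, -3.04 and -2.80 in CTRL pups, a rise of 1.55 (2.93-fold, SE 0.29, adjusted p = 0.0136). All MDD pups were above all CTRL pups, and MDD replicate 2 was nearest to them. Ccdc80, a matrix protein, rose by 0.44, Islr, a surface protein of mesenchymal cells, by 0.69, Mfap5, a microfibril glycoprotein, by 0.68, and Mdk, the growth factor midkine, by 0.67. The fibrillar collagen genes, the main load-bearing product of fibroblasts, did not pass: Col1a1 differed by 0.01 (SE 0.19), Col3a1 by -0.04 (SE 0.26) and Col1a2 by 0.22 (SE 0.21). With the trend with gene length and signal removed 5 of the 50 passed, and the median was 0.38; Islr (0.38, adjusted p = 0.0877) and Mdk (0.39, adjusted p = 0.0761) were among those that did not. Of 8 genes of the arachnoid barrier layer 0 passed, where 20.4% of all tested did, and the median was 0.39. The 2 with the smallest p were the podoplanin gene Pdpn (0.40, adjusted p = 0.0574) and the keratin gene Krt8 (1.20, adjusted p = 0.078). The Krt8 probe was above background on 2 MDD arrays and 1 CTRL array.

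**Figure D4:**
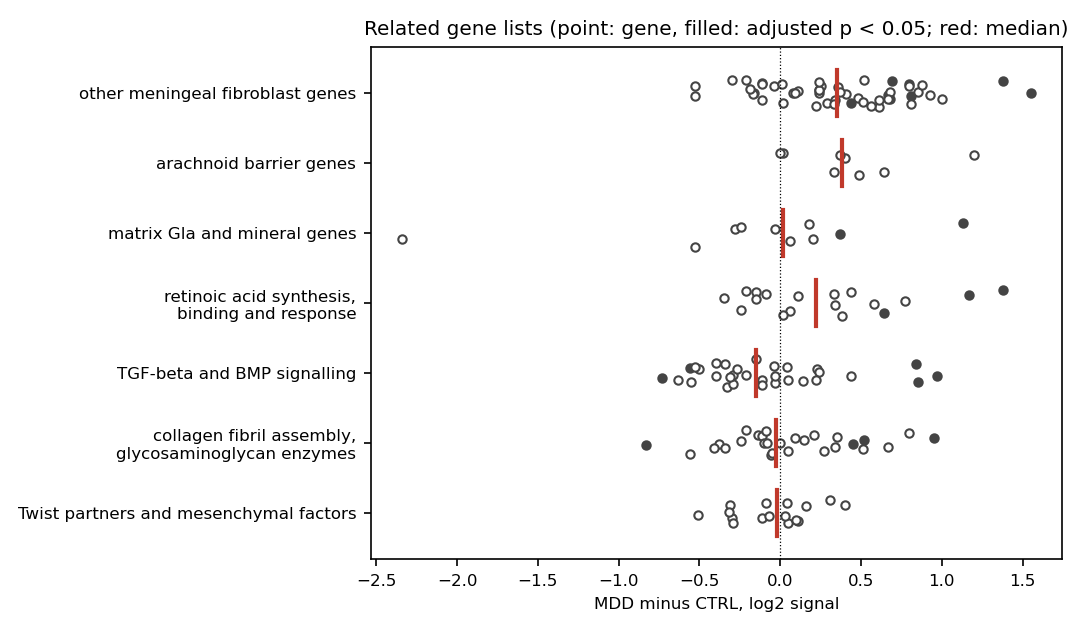
Difference MDD minus CTRL in log2 signal (horizontal axis) of each measured gene (points; filled where the adjusted p is under 0.05) in 7 lists around the 8 genes, which are left out, with the list's median as a red bar. Medians run from -0.15 (TGF-beta and BMP signalling) to 0.39 (arachnoid barrier genes).

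Of 10 measured genes of matrix Gla proteins and mineral control, 2 rose (20%, against 12.7% of all tested) and 0 fell, with a median of 0.01. Vkorc1, which recycles vitamin K, had 2.51, 2.17 and 2.55 in MDD pups, and 1.23, 1.41, 1.29 and 1.17 in CTRL pups, and rose by 1.13 (2.20-fold, SE 0.14, adjusted p = 0.00964), without overlap. Ggcx, the carboxylase that uses vitamin K, rose by 0.37 (1.29-fold, SE 0.11, adjusted p = 0.0499). With the trend with gene length and signal removed, Vkorc1 kept its call (0.68, adjusted p = 0.0236) and Ggcx did not (0.28, adjusted p = 0.0775). The paralog Vkorc1l1 differed by -0.03 (SE 0.14).

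Around Aldh1a2, 3 of 18 measured genes of retinoic acid synthesis, binding and response rose (16.7%, against 12.7% of all tested). Of these 18, 0 fell (against 7.72%), and the median was 0.22. Among them were Rarres2, the secreted chemerin precursor first found as a retinoid-responsive gene, by 1.17 (2.25-fold, SE 0.20, adjusted p = 0.0111), and the transglutaminase gene Tgm2 by 0.64 (1.56-fold, SE 0.17, adjusted p = 0.0375). The receptor genes Rara, Rarb and Rarg differed by -0.21, -0.24 and -0.15 and did not pass. Neither did another retinaldehyde dehydrogenase, Aldh1a1 (0.34, adjusted p = 0.0674), or the degrading enzyme Cyp26b1 (-0.09). With the trend with gene length and signal removed 5 of the 18 were called higher, with Aldh1a1 (0.54, adjusted p = 0.0326) and the receptor gene Rxrg (0.72, adjusted p = 0.0395) besides.

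In the TGF-beta and BMP pathway, whose ligands decorin and biglycan bind, 3 of 31 measured genes rose (9.68%, against 12.7% of all tested). There were 2 that fell (6.45%, against 7.72%), and the median was -0.15. The inhibitor of DNA binding genes Id1 (0.84, SE 0.13, adjusted p = 0.0103) and Id3 (0.97, SE 0.21, adjusted p = 0.019), known targets of BMP whose products bind partners of factors such as Twist1, rose, as did the ligand gene Bmp7 (0.85, SE 0.14, adjusted p = 0.0106). Their relative Id2 differed by -0.63 (SE 0.24, adjusted p = 0.096), and by -1.16 with the trend removed (adjusted p = 0.0237). The BMP receptor gene Bmpr2 fell by 0.56 (SE 0.15, adjusted p = 0.034), but did not pass with the trend removed (-0.35, adjusted p = 0.0912). Tgfbr3, the betaglycan coreceptor, was not well above background on any MDD array and was on 3 of 4 CTRL arrays. Its means were -6.98 in MDD and -6.25 in CTRL (difference -0.73, 95% interval -1.16 to -0.30, adjusted p = 0.032). With MDD values under the floor of detection raised to that floor, Tgfbr3 was 1.57-fold lower in MDD, a point estimate without its error. It did not pass with the trend removed (-0.47, adjusted p = 0.102). The gene entered the test through its CTRL arrays alone, so its call lends no support to the count. Tgfb1 and Tgfb2 differed by -0.03 and -0.50 and did not pass.

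Among 28 measured genes of collagen fibril assembly and of the enzymes that build glycosaminoglycan chains, 3 rose and 1 fell (3.57%). Both shares were below those over all tested, where 12.7% were called higher and 7.72% lower. B4galt7, which adds the first galactose of the chain linker, rose by 0.52 (SE 0.13, adjusted p = 0.0323), and Chpf, a chondroitin polymerising factor, by 0.45 (SE 0.11, adjusted p = 0.0295). With the trend removed neither passed (B4galt7 0.30, adjusted p = 0.113; Chpf -0.02, adjusted p = 0.92), and under quantile scaling Chpf differed by 0.10 (adjusted p = 0.543). B3galt6, which adds the second galactose, rose by 0.95 (SE 0.21, adjusted p = 0.0212) at its brighter probe, while its other kept probe gave 0.10. Csgalnact2, a chondroitin chain enzyme, fell by 0.83 (SE 0.15, adjusted p = 0.0133). Of 16 measured partners of Twist1 and other mesenchymal transcription factors 0 passed, where 20.4% of all tested did, and the median was -0.02. Zeb2 (-0.31, adjusted p = 0.09) and Tbx18 (-0.30, adjusted p = 0.137) had the smallest p. The genes of the E-protein partners of Twist1, Tcf3, Tcf4 and Tcf12, differed by 0.03, -0.32 and -0.07.

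Markers of other cells at the surface of the cerebellum were read beside these results, and their part in them was not tested. Over all tested, 12.7% were called higher and 7.72% lower. Sums add linear signal over probes, so the brightest genes weigh most in them. The signal summed over the 50 fibroblast genes, in multiples of each array's 75th percentile, was 88.0 to 172 in MDD and 65.2 to 101 in CTRL. On every array the largest term of this sum was Ptgds, which did not pass (0.93, adjusted p = 0.0949). Choroid plexus markers summed to 116 to 276 in MDD and 99.5 to 135 in CTRL, with 0 of 16 called and all above background on some array. Nearly all of this sum was Ttr on every array, so the sum and the Ttr values below are not separate observations. Otx2 (0.47) and Ttr (0.72) had the smallest p. The transthyretin gene Ttr had 7.64, 6.82 and 8.07 in MDD pups, and 6.59, 7.03, 6.70 and 6.84 in CTRL pups, so that MDD replicates 1 and 3 were above every CTRL pup and replicate 2 was not, as for Fmod and Aldh1a2. Red blood cell markers summed to 135 to 385 in MDD and 104 to 182 in CTRL, with 0 of 4 called and the smallest p for Hbb (0.81) and Alas2 (0.56). Of 15 mural cell markers 1 rose (Higd1b, by 1.24), with sums of 7.24 to 8.98 in MDD and 6.59 to 6.98 in CTRL. Of 16 endothelial markers 1 rose (Cldn5, by 0.68), with sums of 9.44 to 11.0 in MDD and 8.56 to 10.1 in CTRL. Of 7 border macrophage markers 1 rose (RT1-Da, by 1.22), with sums of 0.623 to 0.786 in MDD and 0.316 to 0.600 in CTRL. In mural, endothelial and border macrophage lists 1 marker each was not above background on any array. Of 8 bone and cartilage markers 1 fell (Col11a2, by 0.48), and of 9 skeletal muscle markers 1 rose (Pvalb, by 0.67, which cerebellar neurons also make), with a median of -0.48. The other 8 muscle markers were all highest in CTRL replicate 3, as given above, so this median leans on that pup. Pvalb did not pass under quantile scaling (0.06, adjusted p = 0.73), nor Cldn5 with the trend removed (0.21, adjusted p = 0.201). With the trend removed RT1-Da (1.20, adjusted p = 0.0543) and Col11a2 (-0.44, adjusted p = 0.0668) did not pass either, while Higd1b did (0.97, adjusted p = 0.0235). The groups overlapped for RT1-Da.

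By likeness, the named genes outside the set that followed it most closely over the 7 arrays were Sulf1, Cdh13, H2ac1, Ptpn7, Clec10a, Abca4, Septin9 and Sphk1. These 8 were the highest in a search through the named genes, of which 11966 were tested, so high values were sought out. Likeness is Pearson's r with the mean of the 8 centred genes, given as a description over 7 arrays that share their scaling, and it ran from 0.99 for Sulf1 to 0.965 for Sphk1. With group means subtracted the closest were Septin9 (0.993), Cdh13, Sulf1, Cox19, Msx1, Abca4, Pink1 and Clec10a (0.974), and 5 genes are on both lists. Sulf1, which trims sulfate from heparan sulfate chains, differed by 1.22 (2.33-fold, adjusted p = 0.103) and did not pass, and of the genes in both lists together only Cox19 did (0.44, adjusted p = 0.0388).

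**Figure D5:**
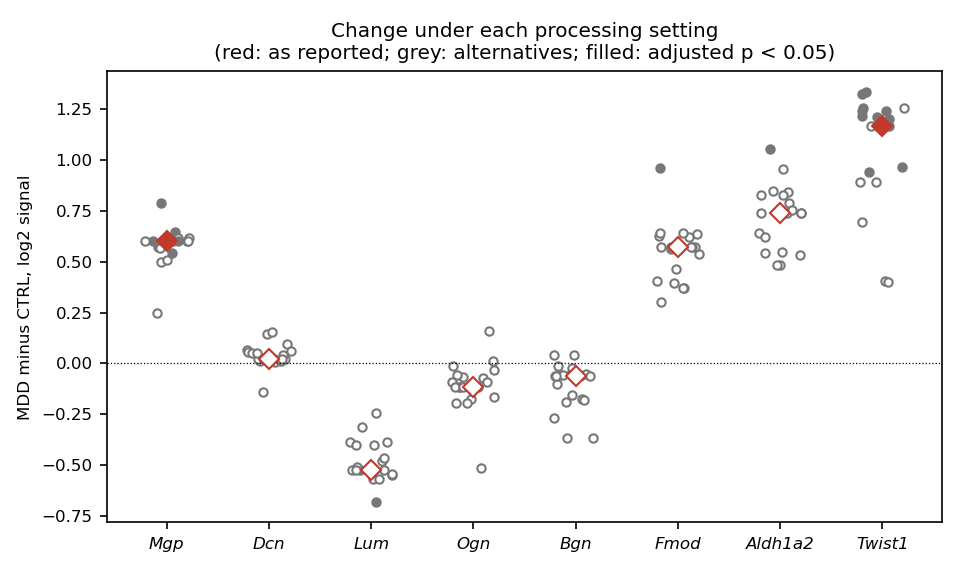
Difference MDD minus CTRL in log2 signal (vertical axis) of each of the 8 genes as reported (red) and under each of up to 20 alternatives (grey); filled points have an adjusted p under 0.05. Mgp, Fmod, Aldh1a2 and Twist1 stay above 0 and Lum stays below 0 under every alternative drawn, while Dcn, Ogn and Bgn lie on both sides.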

How the data were processed

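Total RNA from 20 mg of cerebellum per pup was amplified and labelled with Cy3 for 1-colour Agilent arrays, per the labels' protocols. The deposited scanner tables hold linear spot intensities from Feature Extraction 10.7.3.1 on an rn4 grid, background-subtracted and detrended within the array, per the file headers. Their 0 or 1 flags, other columns used here, are the scanner's, per the file headers. The authors' deposited table holds normalized intensities by a method not given in the sources used here, with columns that show the group but not the pup. The 7 arrays share 1 slide.

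Values are log2 of the processed intensity minus that of the array's 75th percentile (1140 to 2105 units). Control spots and outliers marked by the scanner were dropped, and replicate spots averaged. A probe was kept where 3 or more of the 7 arrays had 50% or more of its spots well above background. Symbols came from RefSeq GRCr8 by unversioned accession, which named 18355 of 30367 probes. The brightest kept probe stood for a gene. Groups were compared in limma 3.58.1 (R 4.3.3, lmFit and eBayes, two-sided), adjusted over 19991 genes and unnamed probes, with a threshold of 0.05; 5 residual degrees of freedom became 8.39 with the prior. The fit was tested on simulated data.

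The members, lists, tests and alternatives were chosen with earlier results of these data known. From each list the text names up to 6 called genes by smallest p (3 for markers of other cells), or, if none was called, the 2 lowest in p, and for likeness the 8 with the highest r. The collagen, receptor, ligand and E-protein genes that did not pass, with Aldh1a1, Cyp26b1, Vkorc1l1, Id2 and Myl11, were named besides, after their values were seen. Alternatives were quantile and median scaling, normexp (offset 50, on median spot and background intensities), the authors' table, other filters, probe averaging, a trended prior, a loess fit on gene length and signal, blocks for replicate number and slide row, and leaving out each array. Some lists share genes, and some genes that the rule names are not reported.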

Additional observations from a re-analysis of the deposited data

Results flagged for a closer look

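Fmod in CTRL replicate 1 stood apart from its group. At -0.45 it lay below the other CTRL pups at 0.25, 0.29 and 0.30, and its gap to the nearest was 0.93 of the group's range, above the critical value of 0.829 for 4 samples. For each of the 8 genes the CTRL group was checked, and chance alone marks about 1 in 20 groups. Without this array the Fmod difference was 0.39 (adjusted p = 0.406), against 0.58 with it. Aldh1a2 (0.708) and Twist1 (0.807) were also lowest in this pup, with gaps under the critical value.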

How the results depend on the processing

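The 7 arrays come from pups of unstated dams, all MDD arrays lay in row 2 of the slide with CTRL replicate 4, and row 1 held CTRL arrays only. Twist1 and Lum were dim, which limits both. Deviations of same-numbered pups from their group means correlated weakly (0.095, -0.179 and 0.223 for numbers 1 to 3), so the reported test did not pair them. These correlations cannot show whether such pups shared a dam or a batch. The count of members called higher was 0 with the replicate block, with the row as a block, within row 2 and with no filter on dim probes, and 1 with the authors' table, normexp, the trend removed, all 7 arrays above background, and without the bright Twist1 spot. Leaving out 1 array gave 1 to 4 (4 without MDD replicate 2). Members called lower were 0 throughout, except 1 (Lum) with all 7 arrays above background, and 0 to 1 leaving out 1 array. Over all genes, 2538 higher and 1543 lower became 0 and 0 with the replicate block, 0 and 1 with the row as a block, 1 and 6 within row 2, 1205 and 388 with no filter, and 782 and 557 with the trend removed. Normexp gave 934 lower and 2290 higher, and leaving out 1 array 799 to 2905 higher and 223 to 2329 lower. Bgn turned to 0.04 with the replicate block, as it did without CTRL replicate 4. That pup has no same-numbered MDD pup, so the block gives it no weight in the difference. Leaving out 1 array, Dcn ran from -0.14 to 0.15, Ogn from -0.52 to 0.16 and Bgn from -0.18 to 0.04; fewer arrays entered these fits, and for the rest the cause was not tested. Mgp kept its call in 9 of 20 alternatives (0.25 to 0.79) and Twist1 in 12 of 19 (0.40 to 1.34). Both have 1 probe, so probe averaging, counted for each as a kept call, could not change their values. Dropping the bright Twist1 spot, also counted for Mgp, could not change the Mgp values.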

Other observations

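Several of the proteoglycan genes are neighbours in the rat genome (GRCr8), with no coding gene between them. Dcn and Lum adjoin on chromosome 7, and their differences were 0.02 (SE 0.15) and -0.53 (SE 0.16). Fmod and Prelp adjoin on chromosome 13, at 0.58 (SE 0.32) and 0.44 (SE 0.21). Ogn and Omd adjoin on chromosome 17, at -0.12 (SE 0.30) and 0.07 (SE 0.19). Differences between neighbours were not tested.

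Of 13 microglia markers 7 rose (53.8%, against 12.7% of all tested) and 2 fell (15.4%, against 7.72%). Their sums were 16.6 to 21.7 in MDD and 13.3 to 13.9 in CTRL. Trem2 was higher by 1.13 (SE 0.16, adjusted p = 0.00964), Tyrobp by 0.99 (SE 0.17, adjusted p = 0.0111), and Cx3cr1 was lower (-0.89, SE 0.15, adjusted p = 0.011). Of 18 cerebellar neuron markers 0 rose and 7 fell (38.9%), among the latter Gad2 (-0.59) and Gabra6 (-0.74). Among 12 astrocyte markers 1 rose (8.33%), which was Aldh1l1 (0.51). Among 10 oligodendrocyte markers 1 fell (10%), which was Mobp (-0.57).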
